A study of Homo sapiens with 16 samples.

Results

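The regions described here gained H3K9 acetylation with TGF-beta at places where H3K27 acetylation was already present. They were found by merging the H3K9ac peaks of 4 libraries where they overlapped by at least 1 bp on chromosomes 1 to 22 and X. A region was kept when it was called in each of the TGF-beta libraries of H3K9ac but in neither vehicle one, and when it overlapped an H3K27ac peak in both vehicle libraries. The regions were thus selected on the H3K9ac peaks of all 4 libraries and on the H3K27ac peaks of vehicle cells. Of 68046 merged H3K9ac regions, 2076 (3.05%) met this rule. They were 59.2% of the 3505 regions that gained H3K9ac. Another 357 gained regions overlapped H3K27ac in 1 vehicle library, and 1072 in neither.

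The cells were H69, an immortalised line derived from human bile duct epithelium (cholangiocytes), and every group came from this line alone. Vehicle cells were compared with cells given recombinant human TGF-beta at 10 ng/ml for 16 h. Chromatin immunoprecipitation followed by sequencing (ChIP-seq) mapped H3K27ac, H3K9ac and the transcription factor SMAD3, with 2 vehicle and 2 TGF-beta libraries for each of the 3 targets. Replicates 1 and 2 carry the acetylation marks, and replicates 4 and 5 are of SMAD3.

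TGF-beta binds receptor kinases at the cell surface, which phosphorylate SMAD2 and SMAD3. The phosphorylated proteins join SMAD4, enter the nucleus and bind DNA beside other transcription factors, often at enhancers that are already open, and recruit acetyltransferases. H3K27ac is written mainly by p300 and CBP and marks active enhancers and promoters, while H3K9ac is written mainly by GCN5 and PCAF and is strongest at active promoters. In the bile duct, TGF-beta is best known for its part in fibrosis around injured ducts.

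A small group of the gained regions overlapped the promoter window of an annotated transcript, though not always its start. Of these promoters 5 are printed to show the DNA in and beside which H3K9ac appeared. RefSeq promoter windows run from 250 bases before to 50 bases after a start, on GRCh38.p14. Of 35116 such windows, 39 were overlapped by 38 gained regions, and 14 of the 39 belonged to protein-coding genes and 25 to long noncoding RNAs. LOC105374715, LOC124906269 and LOC105372501 are long noncoding RNAs, ALOX5AP encodes the protein that presents arachidonic acid to 5-lipoxygenase, and FGF1 encodes a fibroblast growth factor. FGF1 was chosen after its values were seen. The sequences are given 5′ to 3′ on the strand of the gene, and capitals mark matches, on either strand, to the AP-1 motif TGANTCA, to the SMAD box CAGAC or to the SMAD motif GGCGCC.
LOC105374715 (chr5:33049354-33049653, minus strand): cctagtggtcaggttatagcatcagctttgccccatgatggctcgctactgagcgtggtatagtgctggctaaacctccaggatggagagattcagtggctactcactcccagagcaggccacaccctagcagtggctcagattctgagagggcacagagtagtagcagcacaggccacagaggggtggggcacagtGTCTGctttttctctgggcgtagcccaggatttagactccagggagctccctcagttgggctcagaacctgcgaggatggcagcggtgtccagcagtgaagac
LOC105372501 (chr20:1829606-1829905, plus strand): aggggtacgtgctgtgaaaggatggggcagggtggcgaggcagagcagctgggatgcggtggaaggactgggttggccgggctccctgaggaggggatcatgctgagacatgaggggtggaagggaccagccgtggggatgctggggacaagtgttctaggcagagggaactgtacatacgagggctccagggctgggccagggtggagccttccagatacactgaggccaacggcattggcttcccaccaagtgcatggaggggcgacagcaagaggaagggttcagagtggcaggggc
FGF1 (chr5:142686041-142686340, minus strand): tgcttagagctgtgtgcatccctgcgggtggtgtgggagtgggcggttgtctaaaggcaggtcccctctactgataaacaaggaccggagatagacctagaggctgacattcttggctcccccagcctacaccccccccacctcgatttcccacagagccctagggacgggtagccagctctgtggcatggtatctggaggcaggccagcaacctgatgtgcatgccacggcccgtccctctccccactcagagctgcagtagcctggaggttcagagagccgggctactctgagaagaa
ALOX5AP (chr13:30713235-30713534, plus strand): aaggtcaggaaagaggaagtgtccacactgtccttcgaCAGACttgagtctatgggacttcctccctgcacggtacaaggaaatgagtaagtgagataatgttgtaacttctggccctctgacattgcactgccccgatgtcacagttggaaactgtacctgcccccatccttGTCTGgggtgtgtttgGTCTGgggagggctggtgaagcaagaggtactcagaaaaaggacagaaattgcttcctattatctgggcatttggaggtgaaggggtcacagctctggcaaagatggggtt
LOC124906269 (chr3:115790851-115791150, plus strand): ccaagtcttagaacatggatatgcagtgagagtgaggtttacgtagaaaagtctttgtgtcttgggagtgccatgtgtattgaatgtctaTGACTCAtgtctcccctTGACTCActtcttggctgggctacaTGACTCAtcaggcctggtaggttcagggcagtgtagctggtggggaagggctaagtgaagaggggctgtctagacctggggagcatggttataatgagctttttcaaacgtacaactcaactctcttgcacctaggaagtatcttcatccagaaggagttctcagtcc
The windows of LOC105374715 and LOC105372501 lay wholly inside a gained region, and of the FGF1 window 188 bases did. The gained region reached only the last 39 bases of the ALOX5AP window and the last 54 of the LOC124906269 window. LOC124906269 held 3 matches to the AP-1 motif, which is found in 7.71% of all RefSeq windows of this length. ALOX5AP held 3 matches to CAGAC and LOC105374715 held 1, a motif found in 45.3% of windows. The match of LOC105374715 lay inside its gained region. Those of ALOX5AP and LOC124906269 all lay outside theirs, upstream of its edge. The GGCGCC motif, found in 19.2% of windows, was in none of the 5. A match is a run of letters and not a site shown to be bound.

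H3K9ac and SMAD3 at these promoters differed from one to the next. At LOC105374715 the H3K9ac peaks covered 0 and 0 bp with vehicle and 1398 and 1512 bp with TGF-beta in the region with 1 kb on each side. SMAD3 covered 0 and 0 bp with vehicle and 777 and 716 bp with TGF-beta in the same window (limma adjusted p = 0.00520). At LOC105372501 SMAD3 was listed at 0 in both vehicle libraries and covered 1488 and 841 bp with TGF-beta (limma adjusted p = 0.00842). The region at FGF1 had SMAD3 over 455 and 607 bp with TGF-beta and none with vehicle (limma adjusted p = 0.00636). At LOC105374715, LOC105372501 and FGF1 the vehicle lengths of 0 had no spread. These regions could be tested only because of their SMAD3 with TGF-beta, and their p-values are a description. SMAD3 was listed at 0 in all 4 libraries at LOC124906269, where H3K27ac covered 460 and 874 bp with vehicle and 2768 and 2781 bp with TGF-beta. Of the 38 gained regions over a promoter window, at least 6 had a SMAD3 peak in both TGF-beta libraries. Regions that had SMAD3 with vehicle as well may be missing from this count.

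No read counts came with the peaks, which leaves the depth unknown, and length of DNA inside peaks was used in its place. Libraries held 82259 to 92714 H3K27ac peaks, 54682 to 61297 H3K9ac peaks and 22451 to 34413 SMAD3 peaks. SMAD3 peaks were more numerous with TGF-beta (33700 and 34413) than with vehicle (22451 and 25268), and H3K27ac peaks covered 63.8 and 65.1 Mb against 54.7 and 59.1 Mb. The TGF-beta replicate 2 libraries of both marks were sequenced on lane 8 and the other mark libraries on lane 7. Within lane 7, where 1 TGF-beta library faced 2 vehicle libraries of H3K9ac, 3216 regions met the rule. Among 16 marker genes fixed for cell types, KRT7, KRT8, KRT18, KRT19 and SOX9 of cholangiocytes had both marks in all 8 mark libraries, while ALB and TTR of hepatocytes and DES of muscle cells were at 0 in all 12 libraries. APOA1, also of hepatocytes, had peaks in all 12, with 0.195 to 0.331 kb of H3K27ac. PECAM1 of endothelium had 13.2 to 14.1 kb of H3K27ac in all 4 libraries. PTPRC of leukocytes had 2.70 and 2.75 kb with vehicle and 1.43 and 1.42 kb with TGF-beta, and CD3E of T cells 0.959 and 0.957 kb with vehicle and 0 with TGF-beta. Whether replicates came from separate cultures is not said in the labels, and p-values then measure only the spread between these libraries, which may be technical.

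The gained H3K9ac regions were short and among the weaker peaks of their libraries. Their median length was 325 bp (142 to 1332 bp), against 1087 bp for the 29890 regions that had H3K9ac in all 4 libraries and H3K27ac in both vehicle libraries, called constant regions below. Within the TGF-beta libraries the median gained region stood at the 24.8 and 31.8 percentile of peak scores, where 100 is the strongest. The score is the peak caller's −log10 of a p or q value and is the authors' own. The lower of a region's 2 TGF-beta scores had a median of 7.37 and ran from 2.03 to 123.

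These values chose the regions and are given as a description. Regions called in the 2 TGF-beta libraries and in only 1 vehicle library, which the rule left out, numbered 2043, and their vehicle score ran from 2.04 to 29.3 with a median of 6.87. In 82 gained regions both TGF-beta scores were under 5. The vehicle H3K27ac overlap that the rule required was 4 bp at the least, and 14 regions had under 10% of their length inside it. At the other end, 909 regions (43.8%) lay wholly inside H3K27ac peaks of both vehicle libraries. The nearest gained region outside H3K27ac missed it by 1 bp, and 53 missed it by no more than 100 bp.

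The number of gained regions depended on which libraries had to agree. It was 4246 without TGF-beta replicate 1 of H3K9ac, 3946 without vehicle replicate 1 and 2076 with all 4. Regions with vehicle H3K27ac that lost H3K9ac, called in both vehicle and in neither TGF-beta library, numbered 2936, against 2076 that gained it. This order turned without TGF-beta replicate 1 of H3K9ac, with 3361 lost and 4246 gained. Lost regions numbered 4531 without TGF-beta replicate 2, 5016 without vehicle replicate 1 and 7785 without vehicle replicate 2.

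Gained regions were found away from gene ends. RefSeq gene spans were used, and regions no more than 1 kb from the first or last base of a protein-coding gene counted as lying at a gene end. This held for 85 of the 2076 gained regions (4.09%), given without an interval because regions are not replicates. It held for 51.6% of constant regions, 12.5% of regions gained without H3K27ac and 7.97% of regions that lost H3K9ac. Inside genes but away from their ends lay 49.5% of gained regions, and 46.4% lay outside genes. The annotation used gives no exons, so exon or intron is not stated for any region. The difference from constant regions is a description, because the presence of H3K9ac set both classes.

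Many gained regions lay close to H3K9ac that vehicle cells already had. The distance to the nearest vehicle H3K9ac peak had a median of 714 bp, with quartiles at 244 and 9754 bp. Other classes were not compared in this distance. Under 200 bp away lay 406 regions (19.6%), and 700 (33.7%) lay between 200 bp and 1 kb away. A further 513 (24.7%) were 10 kb or more from any vehicle H3K9ac peak. The plot by distance has a high narrow peak below 1 kb and a broad shoulder at larger distances.

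**Figure D1:**
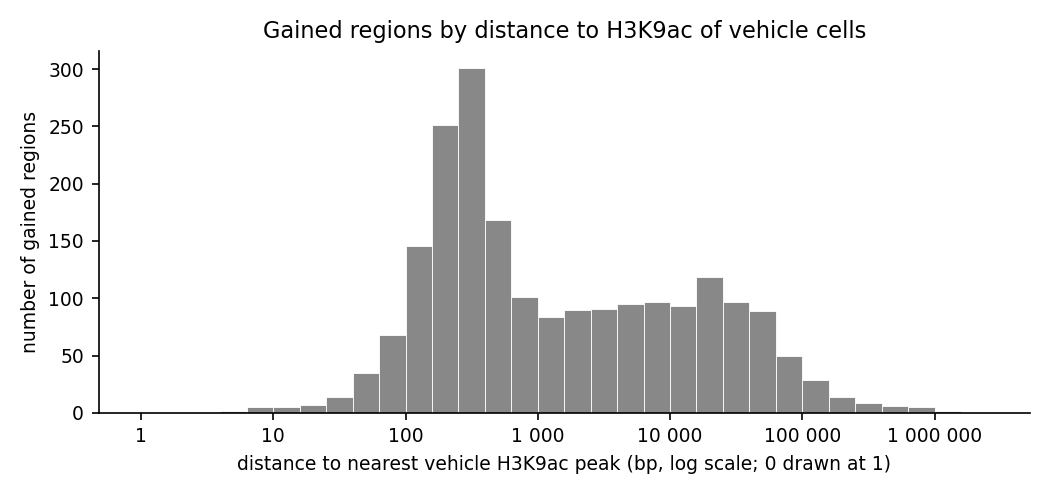
Number of gained regions (vertical axis) by distance in bp to the nearest H3K9ac peak of either vehicle library (horizontal axis, log scale), for all 2076 regions. Regions within 1 kb form the tall peak at the left, and the 513 regions at 10 kb or more form the right part of the shoulder.

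Some genes had several gained regions nearby. Joining regions within 10 kb gave 1612 separate loci. Neither this count nor the number of gained regions per gene was compared with other classes, so clustering was not tested. Within 50 kb the nearest protein-coding gene was 1 of 1043 genes, and 464 regions had none. Of the 15049 genes that were nearest to any H3K9ac region, 6.93% had a gained region. Of the 1043 genes, 333 had 2 or more gained regions and 52 had 4 or more. Genes with a gained region were long, with a median span of 83.3 kb against 29.7 kb for all genes nearest to an H3K9ac region. The share of H3K9ac regions that were gained ran from 1.12% on chromosome 19 to 4.62% on chromosome 18.

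H3K27ac, which the rule required in vehicle cells, was more extensive with TGF-beta around most gained regions. In the region with 1 kb on each side, the median length inside H3K27ac peaks was 1184 and 1279 bp with vehicle and 1974 and 1961 bp with TGF-beta. At constant regions it was 1678 and 1761 bp with vehicle and 1813 and 1781 bp with TGF-beta. At regions that lost H3K9ac it was 1511 and 1622 bp with vehicle and 1122 and 1058 bp with TGF-beta. In bp, gained regions thus began below constant regions and ended above them, while regions that lost H3K9ac had less with TGF-beta than with vehicle. The windows of constant regions were larger, as their median length was 1087 bp against 325 bp for gained regions. The part of window size in the difference with vehicle was not tested.

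**Figure D2:**
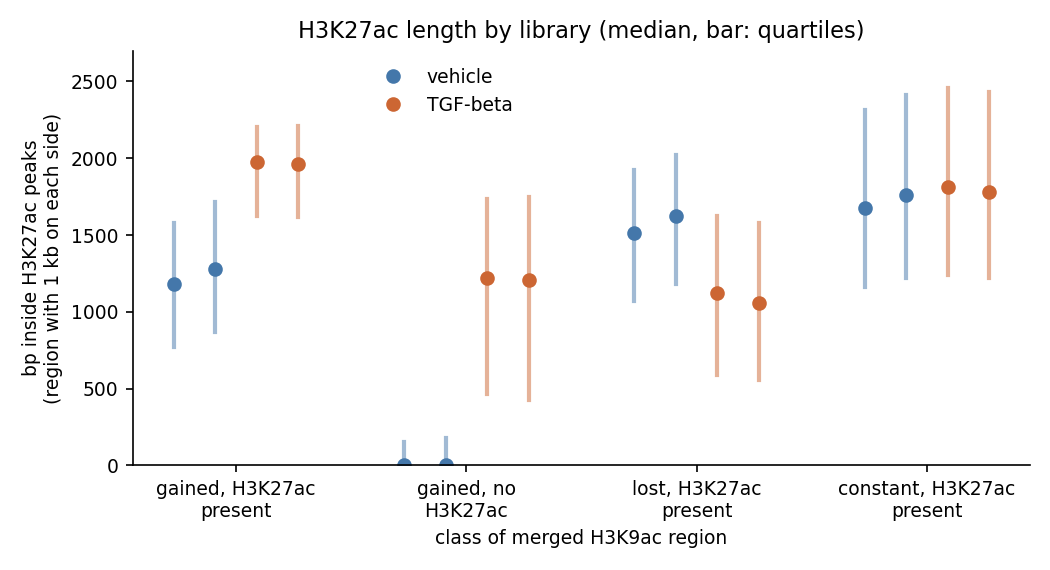
Length inside H3K27ac peaks in bp (vertical axis) for 4 classes of H3K9ac region (horizontal axis), each with 2 vehicle and 2 TGF-beta libraries. Points are medians over regions and bars run between quartiles. At gained regions with H3K27ac the medians were 1184 and 1279 bp with vehicle and 1974 and 1961 bp with TGF-beta.

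The widest H3K27ac peak that overlapped a gained region was wider with TGF-beta. Its median width was 525 and 624 bp with vehicle and 1447 and 1460 bp with TGF-beta. Over constant regions it was 983 and 1061 bp with vehicle and 1116 and 1108 bp with TGF-beta. Constant regions were longer and so could overlap more peaks, and the part of length in this was not tested. Of the 2076 gained regions, 2071 kept an H3K27ac peak in both TGF-beta libraries. In 1784 (85.9%) both TGF-beta libraries had a greater H3K27ac length than both vehicle libraries, as had 33.4% of all merged H3K9ac regions. Fitted with limma on log2 of the length plus 100 bp, 676 gained regions were higher and 2 lower at an adjusted p under 0.05, where 8.11% of all regions tested were higher and 5.86% lower. The rule used the vehicle H3K27ac libraries, so these counts are a description. The median log2 difference in length at gained regions was 0.45 (quartiles 0.15 and 0.90), against −0.07 at constant regions and −0.49 at regions that lost H3K9ac. Counted only inside the region itself, without the 1 kb on each side, the median was 0.01, against −0.02 over all regions tested. There 106 gained regions (5.11%) were higher, beside 1877 of 51177 over all regions tested. The median gained region already lay 100% inside H3K27ac peaks in each vehicle library. Length thus had little room to rise inside many regions, and the median of 0.01 cannot show whether H3K27ac changed there. By peak score, H3K27ac over gained regions stood at a median percentile of 55.3 and 58.7 in vehicle libraries, against 81.7 and 81.6 after TGF-beta. Constant regions stood at 82.4 and 83.4, against 84.7 and 84.5. With 5 kb on each side 1165 gained regions (56.1%) were higher in length, beside 8671 of 62258. The median at gained regions was 0.46 without TGF-beta replicate 1 of H3K27ac and 0.43 without replicate 2. The second of these is also the comparison within lane 7.

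The largest H3K27ac differences were at regions where vehicle cells had little more than the overlap the rule asked for. Inside PARN, which encodes a poly(A) ribonuclease, a gained region on chromosome 16 (14510570 to 14511238) had 201 and 148 bp of H3K27ac with vehicle and 2550 and 2544 bp with TGF-beta. At DPT, which encodes the matrix protein dermatopontin, the H3K27ac length was 250 and 148 bp with vehicle and 2210 and 2302 bp with TGF-beta. At SPOCK1, a gene of a matrix proteoglycan, it was 147 and 188 bp with vehicle and 2272 and 1927 bp with TGF-beta. In all 3 the TGF-beta libraries were far above the vehicle libraries. SMAD3 peaks were at 0 in all 4 libraries at DPT. At SPOCK1 they covered 706 and 256 bp with TGF-beta and 0 with vehicle, which did not pass the test (limma adjusted p = 0.0582). The lowest difference was at MCTP1, a calcium-binding membrane protein gene, with 737 and 390 bp of H3K27ac with vehicle and 187 and 298 bp with TGF-beta. At NXN, which encodes nucleoredoxin, it was 1037 and 1225 bp with vehicle and 619 and 606 bp with TGF-beta. NXN was 1 of the 2 regions called lower above, and MCTP1, whose vehicle libraries differed widely, was not.

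SMAD3 libraries were not used by the rule, so SMAD3 could be compared at the gained regions. SMAD3 peaks overlapped 6 of the 2076 regions in vehicle replicate 4 and 18 in replicate 5, against 328 in TGF-beta replicate 4 and 313 in replicate 5. This was 0.578% ± 0.409 (SD, n = 2) with vehicle and 15.4% ± 0.511 (SD, n = 2) with TGF-beta. The groups did not overlap, and the exact two-sided permutation p was 0.333, the smallest that 2 against 2 libraries can give. Over all merged H3K9ac regions the share was higher, at 30.4% ± 2.12 with vehicle and 37.9% ± 0.758 with TGF-beta (SD, n = 2). Most gained regions (1639, or 78.9%) had no SMAD3 peak in any library. With each SMAD3 library limited to the same number of its strongest peaks, the share was 6.02% with TGF-beta and 0.506% with vehicle.

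Other classes of region differed in their SMAD3. Constant regions had a SMAD3 peak in 64.2% ± 3.19 with vehicle and 73.3% ± 1.22 with TGF-beta (SD, n = 2). Regions gained without H3K27ac went from 0.700% ± 0.330 to 20.3% ± 1.85 (SD, n = 2). Regions that lost H3K9ac had 3.12% ± 1.37 with vehicle and 3.59% ± 0.843 with TGF-beta (SD, n = 2), and these groups overlapped (exact permutation p = 0.667). The rise in share at gained regions was 14.4 percentage points greater than at regions that lost H3K9ac, and differed from that at regions gained without H3K27ac by −4.78 points. Each of these differences between classes had an exact permutation p of 0.333 over the 4 libraries, the smallest possible.

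**Figure D3:**
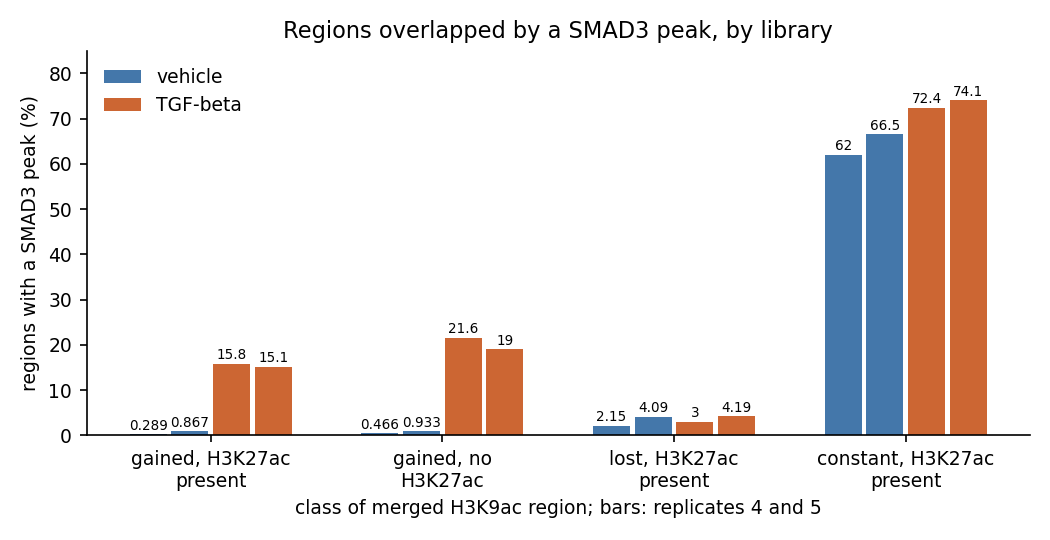
Percentage of regions with a SMAD3 peak (vertical axis) in each SMAD3 library, replicates 4 and 5 of vehicle and of TGF-beta, for 4 classes of H3K9ac region (horizontal axis). Each bar is 1 library. At gained regions with H3K27ac the vehicle bars are 0.289 and 0.867% and the TGF-beta bars 15.8 and 15.1%.

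SMAD3 peaks in the 2 TGF-beta libraries but in neither vehicle library were found at 189 gained regions (9.10%), where 4.60% of all merged H3K9ac regions had this pattern. Only 6 gained regions had a SMAD3 peak in all 4 libraries. SMAD3 length in the region with 1 kb on each side was then tested with limma over all H3K9ac regions. Of the 2076 gained regions 544 passed the filter of a mean of 100 bp and 1532 did not. SMAD3 rose at 356, which lay in 290 loci and near 214 genes, and fell at 0 (limma, 2 at an unadjusted p under 0.05). Of all regions tested, 13.7% rose and 0.812% fell. In 340 of the 356 both vehicle libraries were listed at 0, so that passing the filter itself required SMAD3 with TGF-beta. Vehicle lengths of 0 have no spread, and the SMAD3 p-values of such regions are a description wherever they are given. With no filter, SMAD3 rose at 451 of the 2076 gained regions (21.7%), where 8.24% of all regions did. The calls rested on both vehicle libraries. With only 1 of them, limma called no region at an adjusted p under 0.05, whether gained or not. The median log2 difference at the gained regions tested was 1.68 without vehicle replicate 4 and 1.56 without replicate 5, against 1.77 with all 4 libraries. With equal peak numbers per library SMAD3 rose at 152, and without the 1 kb on each side at 109.

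A large SMAD3 rise lay beside a known target of TGF-beta. A region 3.21 kb outside PMEPA1, whose product at the membrane restrains the TGF-beta pathway, had no SMAD3 with vehicle and 2166 and 2046 bp with TGF-beta (limma adjusted p = 0.00520). Its own H3K9ac peak was weak, at the 12 percentile of peak scores, and lay 226 bp from vehicle H3K9ac. In the region with 1 kb on each side, H3K9ac covered 721 and 708 bp with vehicle and 1990 and 2045 bp with TGF-beta.

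Other regions also had a long SMAD3 gain. Beside FBLN2, which encodes the matrix protein fibulin-2, 1 region had 0 and 0 bp of SMAD3 with vehicle and 1858 and 1376 bp with TGF-beta, and H3K9ac over 0 and 0 bp with vehicle and 2007 and 2117 bp with TGF-beta (limma adjusted p for SMAD3 = 0.00520). A region 65.1 kb from ALOX5AP had SMAD3 over 1340 and 2006 bp with TGF-beta only (limma adjusted p = 0.00520). Its H3K27ac went from 465 and 447 bp to 3078 and 3020 bp. Further rises of this size were near MICAL2, an actin-oxidising enzyme gene, SIRPA, a receptor gene, and CRYBA4, a crystallin gene that lay 477 kb away and is named only as the nearest. At MICAL2 and CRYBA4 the H3K27ac already covered most of the window in vehicle cells, with 2129 and 2361 bp and with 2242 and 2239 bp.

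The 8 gained regions with the best H3K9ac rank all had SMAD3 with TGF-beta. The best ranked region lay 91.0 kb from MRPL14, a mitochondrial ribosomal protein gene (chromosome 6, 44021085 to 44022413), at the 80.8 percentile. Its H3K9ac covered 0 and 0 bp with vehicle and 1999 and 2026 bp with TGF-beta, and its SMAD3 0 and 0 bp with vehicle and 1168 and 774 bp with TGF-beta (limma adjusted p = 0.00645). The other 7 of the 8 best ranked regions lay near or in SMYD3, LOC124904930, NEDD9, STRA8, DIXDC1, ALOX5AP and NEDD4, at the 69.7 to 72.8 percentile. SMAD3 was listed at 0 in both vehicle libraries at all 8, so they passed the filter through the TGF-beta libraries alone. SMAD3 passed the limma test at all 8 (adjusted p 0.00520 to 0.00950), where the vehicle lengths of 0 had no spread, and these values are a description. With equal peak numbers per library, the calls at MRPL14, STRA8 and LOC124904930 were lost, with adjusted p of 0.595, 0.586 and 0.589, and the regions at SMYD3 and NEDD9 did not pass the filter, so that 3 of the 8 kept a call.

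Gained regions with SMAD3 differed from those without in other readouts. The 189 regions with SMAD3 in both TGF-beta and neither vehicle library had a median H3K9ac rank at the 44.0 percentile and a median length of 502 bp. The 1639 regions with no SMAD3 peak stood at the 25 percentile and at 307 bp. The median log2 difference in H3K27ac length was 0.66 in the first group and 0.41 in the second. Longer regions have more room for a peak to overlap, and the part of length in these differences was not tested. SMAD3 and H3K27ac were both higher by limma at 146 gained regions, which were 41.0% of those with higher SMAD3 and 21.6% of those with higher H3K27ac. The share with SMAD3 varied little with distance from vehicle H3K9ac. It was 15.3 and 14.8% in the TGF-beta libraries for gained regions under 200 bp away and 17.3 and 15.6% for those 10 kb or more away.

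NEDD9 had the most gained regions of any gene. It encodes a scaffold protein of focal adhesions that is induced by TGF-beta, and 11 of the 39 H3K9ac regions nearest to it were gained and 2 were lost. H3K27ac in the joined windows of the 11 regions covered 11.3 and 10.1 kb with vehicle and 17.5 and 16.9 kb with TGF-beta. H3K9ac in the same windows covered 1.44 and 1.33 kb with vehicle and 5.53 and 7.10 kb with TGF-beta. SMAD3 passed the test at 2 of the 11. The map of the locus shows most of the gained regions in 2 groups within the gene. The group farther from its lower end holds the best ranked of them (chromosome 6, 11316376 to 11316889), where SMAD3 covered 594 and 422 bp with TGF-beta and 0 with vehicle (limma adjusted p = 0.00883) and the nearest vehicle H3K9ac was 38641 bp away.

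**Figure D4:**
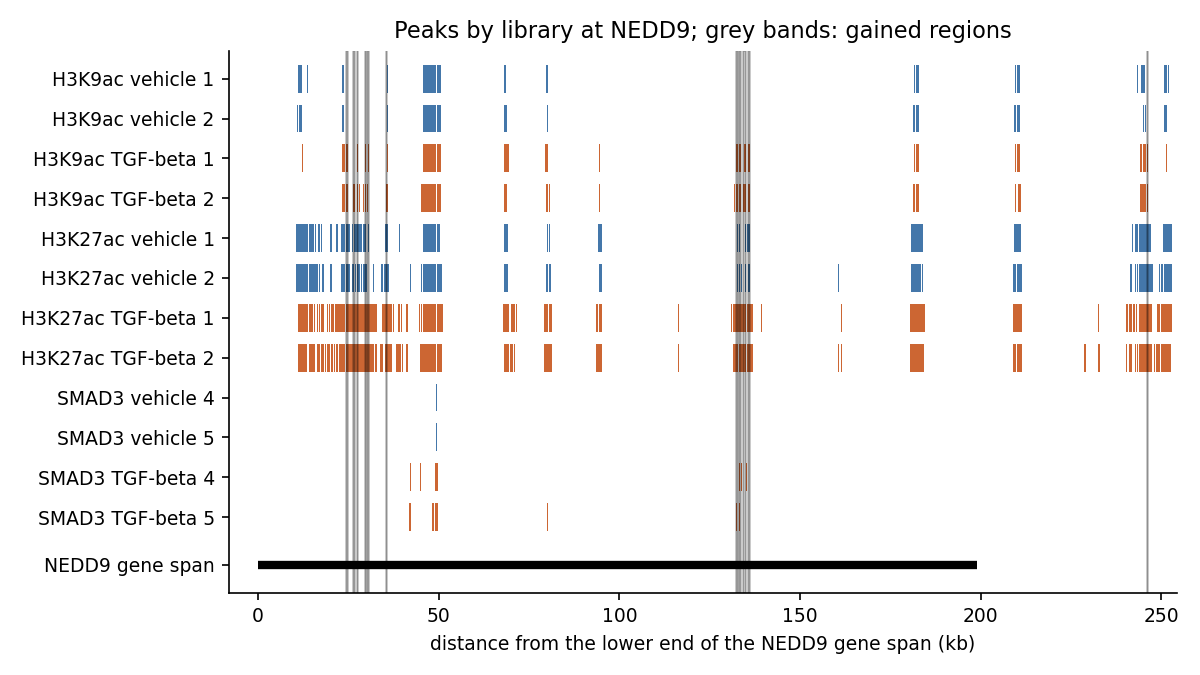
Peaks of the 12 libraries (rows) along NEDD9, by distance in kb from the lower end of its gene span (horizontal axis), with vehicle in blue and TGF-beta in orange. Grey bands mark the 11 gained regions, where H3K27ac is called in all 4 libraries and H3K9ac in the TGF-beta libraries alone.

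TGFBI, a matrix protein gene that takes its name from TGF-beta, had 7 gained regions among 26 and none lost. SMAD3 in their joined windows covered 0 and 0 kb with vehicle and 5.25 and 3.26 kb with TGF-beta, and it passed the test at 4 of the 5 regions tested. H3K27ac covered 5.96 and 6.73 kb with vehicle and 15.4 and 15.3 kb with TGF-beta. At 1 region 21.2 kb from the gene (chromosome 5, 136007066 to 136007814), H3K27ac covered 352 and 159 bp with vehicle and 2749 and 2749 bp with TGF-beta, which filled the window. Of the 10 genes with the most gained regions, TGFBI had the most regions with a SMAD3 call.

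The other genes with many gained regions had less SMAD3. PLB1, a phospholipase gene, had 9 gained regions of 32, and the joined windows held 5.72 and 7.15 kb of H3K27ac with vehicle and 12.9 and 12.9 kb with TGF-beta. SMAD3 passed the test at 2 of these 9. DLC1, a GTPase-activating protein gene, and RAD51B, a gene of homologous recombination, had 8 each. RAD51B lies in a span with 94 H3K9ac regions, and SMAD3 passed the test at 0 of its 8 gained regions (2 tested). NAV2, a gene of a microtubule-binding protein, and PRKCH, a protein kinase C gene, had 7 each, with SMAD3 calls at 2 each. ALOX5AP, FRMD6 and GALNT10 had 6 each within 50 kb, and SMAD3 passed the test at none of these (5 tested).

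Lists of genes known from TGF-beta responses, adhesion and epithelial biology were then counted. For each list the genes nearest to any H3K9ac region were taken, and those with at least 1 gained region were counted, where the share over all genes was 6.93%. Many list genes had more H3K9ac regions each than other genes, so the share of their regions that were gained is given as well, where 2.63% of all regions within 50 kb of a gene were gained. Lost regions are counted beside them, which 10.9% of all genes had. Near all genes, SMAD3 rose at 281 of 432 gained regions tested, and H3K27ac was longer in both TGF-beta libraries than in both vehicle libraries at 1373 of 1612. Of all 544 gained regions tested, 439 had no SMAD3 with vehicle and passed the filter through the TGF-beta libraries, so counts of rises and falls are set in part by the filter. The lists were chosen with earlier results of these data known, and their counts are a description.

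Targets of TGF-beta and SMAD had gained regions at 15 of 32 genes (46.9%), and 37 of their 437 regions (8.47%) were gained. Another 27 regions, at 13 of these genes, were lost. SMAD3 rose at 11 of these 37 and fell at 0, with 16 tested, and genes near these included BHLHE40, NEDD9, PMEPA1, SMAD7 and TGFBI. SMAD7 encodes the inhibitory SMAD of the pathway. In 36 of the 37 the H3K27ac length of both TGF-beta libraries exceeded that of both vehicle libraries, as it did in 85.9% of all gained regions. Members of the pathway itself were among the genes with a gained region, namely the ligand gene TGFB2, the receptor gene TGFBR2, SMAD3 itself and the ubiquitin ligase gene SMURF2, with 1 region each, none of which had enough SMAD3 to be tested.

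Genes of the matrix and its crosslinking had gained regions at 12 of 38 (31.6%), with 17 of 328 regions (5.18%) gained and 22 lost, at 10 genes. SMAD3 rose at 7 of the 17 (8 tested), near COL18A1, LAMC1, LOXL1, P4HA2 and SPARC. At P4HA2 and SPARC no SMAD3 peak overlapped the gained region itself, and the SMAD3 lay in the 1 kb on each side. At LAMC1, the laminin gamma 1 gene, a region 17.1 kb away had SMAD3 over 0 and 0 bp with vehicle and 657 and 757 bp with TGF-beta (limma adjusted p = 0.00525, and 0.593 with equal peak numbers per library). The H3K27ac there covered 2267 and 2383 bp with vehicle and filled the window, 2693 bp, in both TGF-beta libraries. In LOXL1, a lysyl oxidase gene, SMAD3 covered 381 and 488 bp with TGF-beta at 1 of its 3 gained regions and 0 with vehicle (limma adjusted p = 0.00697). Without the 1 kb on each side the adjusted p there was 0.531, and with equal peak numbers per library the region did not pass the filter.

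Integrin and cytoskeleton genes had gained regions at 15 of 37 (40.5%), with 35 of 561 regions (6.24%) gained and 20 lost, at 9 genes. SMAD3 rose at 11 of the 35 (14 tested), near CAPN2, ITGB3, ITGB6, PALLD and TRIO. All 3 gained regions near ITGB6, whose integrin activates latent TGF-beta, had higher SMAD3. In the best ranked of them, 28.6 kb from the gene, SMAD3 covered 1394 and 1250 bp with TGF-beta and 0 with vehicle (limma adjusted p = 0.00520). TNS1 and TNS3, which encode tensins of focal adhesions, each had a gained region with a large H3K27ac difference and no SMAD3. At TNS1 H3K27ac covered 374 and 424 bp with vehicle and 1725 and 1848 bp with TGF-beta, with SMAD3 at 0 in all 4 libraries. At the best ranked of 3 gained regions of TNS3 the H3K27ac length was 450 and 810 bp with vehicle and 2479 and 2486 bp with TGF-beta, also with SMAD3 at 0 in all 4 libraries. Another of the 3 had a SMAD3 peak in TGF-beta replicate 4 alone.

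Of 14 genes that drive or mark the epithelial-mesenchymal transition, 4 had gained regions, namely SNAI1, SNAI2, CDH2 and ETS1. Of the regions of these 14 genes 10 of 124 (8.06%) were gained and 4 lost. SNAI1 and SNAI2 encode repressors of E-cadherin. In the window of a region 43.9 kb from SNAI2, SMAD3 covered 685 and 536 bp with TGF-beta and 0 with vehicle (limma adjusted p = 0.00614). No SMAD3 peak overlapped the region itself. H3K27ac in the same window covered 595 and 343 bp with vehicle and 2021 and 2001 bp with TGF-beta. A region 40.2 kb from SNAI1 lay in H3K27ac that filled its window, 2806 bp, in all 4 libraries. SMAD3 covered 0 and 171 bp with vehicle and 879 and 832 bp with TGF-beta there (log2 difference 2.22, SE 0.431, limma adjusted p = 0.0432), a call lost under several other settings. CDH2, the N-cadherin gene, had 5 gained regions and no SMAD3 call.

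Genes of epithelial junctions, which TGF-beta is known to lower in other epithelia, had gained regions at 7 of 29 (24.1%). Of their 247 regions 11 (4.45%) were gained and 15 lost. SMAD3 rose at 4 of the 11 (4 tested), 1 each near CLDN1, GRHL2, JUP and PKP1. Near CLDN1 and GRHL2 no SMAD3 peak overlapped a gained region itself, and the SMAD3 lay in the 1 kb on each side. The region near PKP1, the plakophilin 1 gene, was the best ranked. There H3K9ac covered 0 and 0 bp with vehicle and 1765 and 1775 bp with TGF-beta, and H3K27ac 451 and 313 bp with vehicle and 2505 and 2531 bp with TGF-beta. SMAD3 covered 0 and 0 bp with vehicle and 1690 and 541 bp with TGF-beta (limma adjusted p = 0.0348, and 0.113 with equal peak numbers per library). DSG2, a desmoglein gene, had H3K27ac over 512 and 296 bp with vehicle and 1712 and 1757 bp with TGF-beta. SMAD3 there was in 1 TGF-beta library only, within 1 kb and not over the region itself.

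YAP target genes had gained regions at 5 of 20 with 1 SMAD3 call, inside DLC1, and 14 of 303 regions (4.62%) were gained and 12 lost. Secreted profibrogenic factors had them at 3 of 27 (11.1%), namely LIF, CSF2 and PDGFC, and SMAD3 rose at none of their 8 gained regions (1 tested). Those 8 were 4.06% of their regions, and 9 regions, at 8 genes, were lost. At LIF, a cytokine gene, SMAD3 covered 0 and 458 bp with vehicle and 2185 and 885 bp with TGF-beta, so the libraries of a group differed widely (log2 difference 2.36, SE 0.893, limma adjusted p = 0.212). AP-1 and immediate early genes had gained regions at 3 of 21, namely IER2, IER3 and KLF6, with 6 of 194 regions (3.09%) gained and 5 lost. A region 14.1 kb from IER2 had SMAD3 in vehicle cells too, with 24 and 53 bp with vehicle and 788 and 713 bp with TGF-beta (log2 difference 2.31, SE 0.152, limma adjusted p = 0.00525). With 5 kb on each side its log2 difference was 0.63 (limma adjusted p = 0.0626). The other gained region near IER2 had SMAD3 over 313 and 342 bp with vehicle and 686 and 568 bp with TGF-beta (log2 difference 0.45, limma adjusted p = 0.231). At IER3 SMAD3 covered 722 and 988 bp with vehicle and 980 and 1003 bp with TGF-beta, so its gained H3K9ac lay beside SMAD3 that vehicle cells already had (log2 difference −0.10, SE 0.147, limma adjusted p = 0.694).

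The remaining lists had few gained regions in number. Acetylation machinery had them at 1 of 23 genes (4.35%), with 3 of 144 regions (2.08%) gained and 7 lost. Cell cycle genes had them at 1 of 22 (4.55%), CCND3, with 1 of 118 regions (0.847%) gained and 3 lost. Cholangiocyte identity genes had them at 2 of 12 (16.7%), with 2 of 101 regions (1.98%) gained and 7 lost, at 5 genes. Among these was KRT19, with 1 gained region and with no SMAD3 peak over it in any library. Housekeeping genes had none at 20 genes and leukocyte markers none at 6, with 2 and 1 regions lost. Of the markers of other cell types, PECAM1 and VWF had 1 gained region each, both of 178 bp, and HNF4A, a regulator of hepatocyte and other epithelial genes, had 1 in which SMAD3 rose from 0 and 0 bp with vehicle to 879 and 757 bp with TGF-beta (limma adjusted p = 0.00525).

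**Figure D5:**
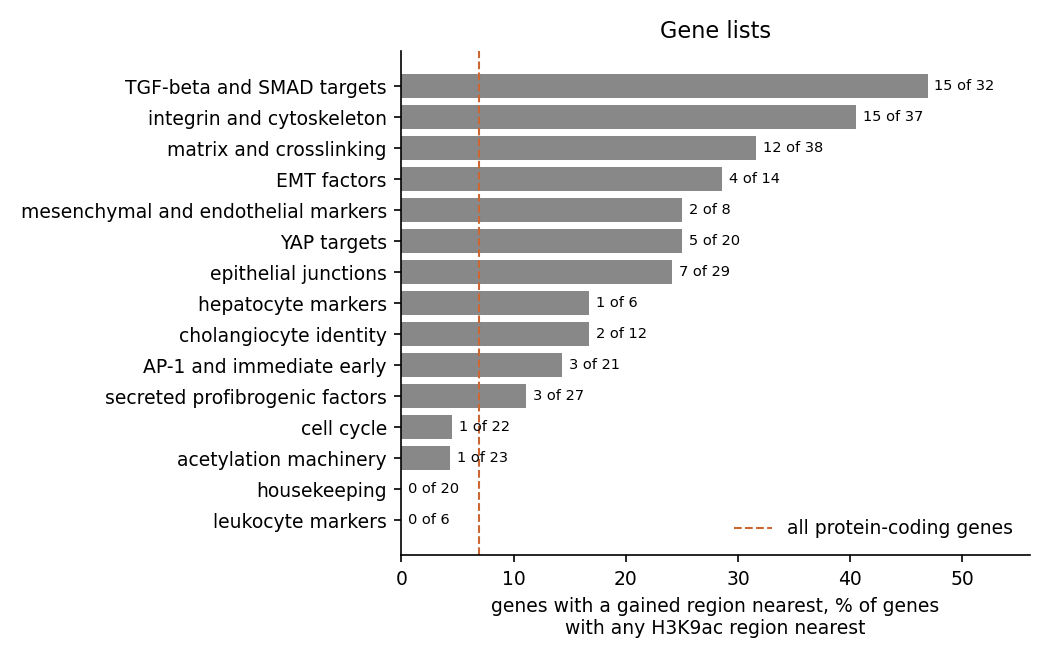
Percentage of genes with at least 1 gained region nearest within 50 kb (horizontal axis), of the genes nearest to any H3K9ac region, for 15 gene lists (vertical axis). Numbers beside the bars are genes, and the dashed line is the share over all protein-coding genes, 6.93%. Targets of TGF-beta and SMAD had 15 of 32.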

How the data were processed

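ChIP-seq peaks of 12 libraries were used, and 4 input samples were not. Per the submitters' processing notes, BWA, Picard, MACS2 and bedtools were used on hg38, with neither versions nor cutoffs stated. Peaks were called per library. The authors deposited a score per peak on the −log10 scale, of a p or of a q value (the sources used here do not say which). The lane comes from the file headers.

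Peaks of the 4 H3K9ac libraries were merged, and length inside peaks was measured in each merged region with 1 kb on each side. For SMAD3 and H3K27ac, 100 bp was added to each length before taking log2, regions whose mean was under 100 bp were dropped, and libraries were centred by the median of regions that all 4 covered. The effect of treatment came from limma 3.58.1 (R 4.3.3), and p-values were adjusted by Benjamini-Hochberg over all H3K9ac regions at 0.05. Log2 differences are TGF-beta minus vehicle. Single shares were compared with an exact permutation test over libraries. The fit was tested on simulated data. Other steps used Python 3.11.15 with pandas 2.3.3, numpy 2.4.6, scipy 1.17.1 and matplotlib 3.10.9. No fold is given where the vehicle libraries were listed at 0.

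The gained regions, the gene lists and the tests were chosen with earlier results of these data known. Named regions were the 8 best by H3K9ac rank, the 8 largest SMAD3 rises, up to 3 per gene list, the 8 genes with the most gained regions and the 4 largest H3K27ac differences in each direction, and some of these are not reported here. Promoters were the 6 best ranked, of which 4 are printed, and FGF1. Other settings tried were the pseudocount, the filter, the window, the centring, the number of peaks, a replicate block and leaving out each library.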

Additional observations from a re-analysis of the deposited data

How the results depend on the processing

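Without each replicate in turn the rule gave 2225 to 4246 gained regions against 2076 (3216 without TGF-beta replicate 2 and 3946 without vehicle replicate 1 of H3K9ac), and 3361 to 7785 lost regions against 2936 (4531 and 5016 without the same libraries). The alternatives for lost regions were chosen after seeing the data. The share of gained regions at a gene end was 0.289% with a distance of 0 kb and 13.6% with 5 kb. The share with SMAD3 under TGF-beta was 8.04% where 50% of the region had to be covered and 36.5% within 1 kb, where vehicle gave 4.21%, and 6.02% when all SMAD3 libraries kept as many peaks as the smallest. SMAD3 rose at 215 gained regions with a pseudocount of 500 bp, 109 with a window of 0 kb, 544 with 5 kb and 152 with equal peak numbers, and at 0 to 345 with a library left out. SMAD3 fell at 1 with the 5 kb window, at 1 with equal peak numbers, and at 0 to 1 with a library left out. H3K27ac was higher at 106 gained regions with a window of 0 kb, 1165 with 5 kb, and 138 to 552 with a library left out, and lower at 0, 15 and 0 to 1. It was lower at 1 without centring. With either vehicle library left out every SMAD3 call was lost over all regions tested, among them all 28 named calls. With equal peak numbers 7 were lost and 5 could not be tested, at SMYD3, NEDD9, CLDN1, DLC1 and LOXL1. At SNAI1 the adjusted p was 0.204 with equal peak numbers, 0.0710 without centring and 0.0984 with a pseudocount of 50 bp. H3K27ac at CSF2 and MICAL2 changed sign with the 5 kb window, to log2 differences of 0.39 and 0.37. The causes were not tested.

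Without centring the median log2 SMAD3 difference over all regions was 0.35 against 0.04, and 365 gained regions rose. For H3K27ac the same step gave 4883 regions higher and 2218 lower over all regions, against 4872 and 3523. Libraries with the same number did not deviate together (correlation 0.05 for SMAD3 and −0.02 for H3K27ac). With a replicate block SMAD3 rose at 320 gained regions, and H3K27ac was higher at 340 and lower at 1. Read depth is unknown, so weak peaks missed in a library cannot be told apart from peaks that were absent.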
